A study of Mus musculus with 8 samples.

Results

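The 10 genes described here make, break down and receive prostaglandins, and were chosen by name as those whose probes carried the symbols Pla2g4a, Ptgs1, Ptgs2, Ptges, Ptgds, Ptgis, Hpgd, Ptger2, Ptger3 and Ptger4. They are 10 of the 29608 gene names on the array and were measured by 14 of its 39429 probes. RNA came from the forepaw (palm) skin of male C57BL/6 mice (WT) and male Adcyap1r1 -/- mice (PAC1R KO), aged 9 to 10 weeks, 30 or 60 min after an intradermal injection of 5 µL of saline with 0.1% BSA, with or without PACAP at 1e-07 mol/L. PACAP is a neuropeptide, PAC1R (Adcyap1r1) is its high-affinity receptor, and the study asked which genes of sweat-gland-bearing skin PACAP changes through that receptor. All mice, WT and KO, were under the same mixed anaesthesia and all skin was injected, so the vehicle samples were not untouched skin. The 6 mice of each genotype were not tied to single RNA samples in the sources, and pooling was not stated.

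Each of the 4 comparisons (WT 30 min, WT 60 min, KO 30 min and KO 60 min) set 1 PACAP sample against 1 vehicle sample on 2 arrays with the Cy3 and Cy5 dyes swapped. Both arrays held the same pair of RNA samples and counted as 1 replicate, so a p-value of a single array speaks of that hybridisation and not of animals. WT samples lay on 1 slide and KO samples on another, so that genotype and slide cannot be told apart.

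Prostaglandins are made when phospholipase A2 releases arachidonic acid, a cyclooxygenase turns it into prostaglandin H2, and terminal synthases convert that into E2, D2, I2 and others. The products leave the cell, act on G protein-coupled receptors that raise cAMP (EP2 and EP4) or lower it (EP3), and are inactivated by 15-hydroxyprostaglandin dehydrogenase. In skin they are known for their part in inflammation, blood flow and itch, and the inducible cyclooxygenase COX-2 is the step that many cells switch on when stimulated.

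Ptgs2, which encodes COX-2, was the 1 member past the counting rule, and it passed in WT mice at 30 min alone. There its level after PACAP was 2.72-fold that of vehicle (log2 ratio 1.45, SD between the 2 arrays 0.18). To pass that rule, the mean of both arrays had to reach 2-fold or sink to 0.5-fold, with each array on the same side of 1 and each with a p below 0.01 from Feature Extraction, the scanner software. In the same comparison 138 of 39428 probes passed it, 0.350%, and 1 of 10 members did. In the 3 other comparisons 0 of 10 members passed, beside 0.692% of all probes for WT 60 min, 0.708% for KO 30 min and 0.292% for KO 60 min.

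Ptgs2 was measured by a probe printed on 10 spots of each array, at chr1:151954744-151954803 of mm9 on the plus strand, and the other genes by probes on 1 spot. The 60-base probes of Ptgs2, Ptger3 and Ptges, members described at length below, are shown by their first 30 bases, 5′ to 3′, since the reading of a gene rests on them. Ptger3, Ptges, Ptgis and Hpgd had a second probe, and whether each lies in an exon, an intron or an untranslated end was not annotated here.
Ptgs2 probe: tttttgaaaagtttgaagttagaacttagg
Ptger3 brighter probe: ctaaatgttcagctagagctgttaaaagga
Ptger3 dimmer probe: accagatcttggatccctgggtttatctgc
Ptges brighter probe: atgataaaggactaaacctctgaacctgta
Ptges dimmer probe: aaccctctgatcgcctggatacatttcctc
The Ptger3 probes lie at chr3:157307508-157307567 and chr3:157268044-157268103 on the plus strand and the Ptges probes at chr2:30744995-30745054 and chr2:30748214-30748273 on the minus strand, all in mm9 and in the order brighter, dimmer. The brighter probe of a gene, by its mean level over the 8 RNA samples, stands for the gene below unless the other is named. All 14 probes were well above background in every RNA sample on both of its arrays, so none of the members' values below is a bound.

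The level of a probe, given as the log2 of its normalised intensity in 1 RNA sample, was lower for Ptgs2 in each vehicle sample than in its PACAP partner. In WT mice at 30 min the level of Ptgs2 was 7.30 with vehicle and 8.30 with PACAP. In WT mice at 60 min it was 7.81 with vehicle and 8.10 with PACAP. In KO mice at 30 min it was 7.12 with vehicle and 7.39 with PACAP, and at 60 min 7.12 with vehicle and 7.65 with PACAP. The highest of the 8 samples was thus the WT PACAP sample at 30 min, the next the WT PACAP sample at 60 min, and the lowest were the KO vehicle samples. Each sample stands alone in its condition, so no spread between animals can be set beside this order. Levels and ratios were normalised in different ways, so the difference of 2 levels need not equal the log2 ratio of the same arrays, and for Ptgs2 it was the smaller in all 4 comparisons.

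As ratios, Ptgs2 lay above 1 on all 8 arrays. For WT 30 min the ratio was 2.50-fold on the array with PACAP in Cy5 and 2.97-fold with PACAP in Cy3, with Feature Extraction p-values of 4.7e-08 and 4.4e-10. In KO mice at 60 min it was 1.61-fold and 1.88-fold with p-values of 0.0014 and 6.6e-05, a mean of 1.74-fold that fell short of the fold threshold. In KO mice at 30 min it was 1.29-fold and 1.45-fold, and in WT mice at 60 min 1.20-fold and 1.35-fold, both with a p above 0.01 on both arrays. The array with PACAP in Cy3 gave the higher value in all 4 comparisons, and this gap between dyes was smaller than the distance of the WT 30 min values from those of every other comparison.

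**Figure D1:**
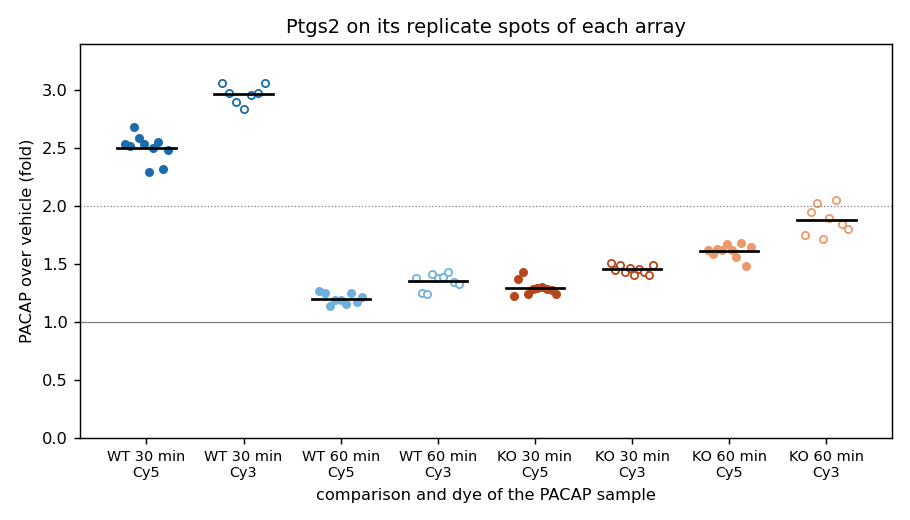
Fold of PACAP over vehicle (y axis, linear) for each replicate spot of the Ptgs2 probe on the 8 arrays, ordered by comparison and by the dye of the PACAP sample (filled, Cy5; open, Cy3). Black bars are means over spots left after outlier spots were removed, and the dotted line marks 2-fold. All 10 spots and all 7 spots of the WT 30 min arrays lie above 2-fold, as do 2 of 8 spots of the KO 60 min array with PACAP in Cy3 and no spot of the other arrays.

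The replicate spots of Ptgs2 set WT 30 min apart, while those of the other comparisons overlapped in part. On the WT 30 min array with PACAP in Cy5 the 10 spots ran from 2.30 to 2.68-fold (mean 2.50 ± 0.12, SD over spots), and on its partner 7 spots ran from 2.84 to 3.07-fold (2.97 ± 0.08). The KO 30 min arrays ran from 1.22 to 1.43-fold over 10 spots and from 1.41 to 1.51-fold over 10 spots. Those of WT 60 min, which overlapped with them, ran from 1.14 to 1.27-fold and from 1.24 to 1.43-fold. The KO 60 min arrays ran from 1.48 to 1.68-fold and from 1.71 to 2.05-fold. No spot of the WT 30 min arrays overlapped with a spot of another comparison, the nearest being a KO 60 min spot at 2.05-fold. Spots of 1 array share the RNA and the labelling, so their SD is that of printing and scanning alone.

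Ranked by the size of the log2 ratio among 30351 probes that no array showed dim in both channels, Ptgs2 was at place 56 in WT at 30 min and 271 in KO at 60 min. It was at place 3064 in WT at 60 min and at 5408 in KO at 30 min. Among these probes Ptgs2 therefore stood in the outer part of the distribution in 2 of the 4 comparisons.

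**Figure D2:**
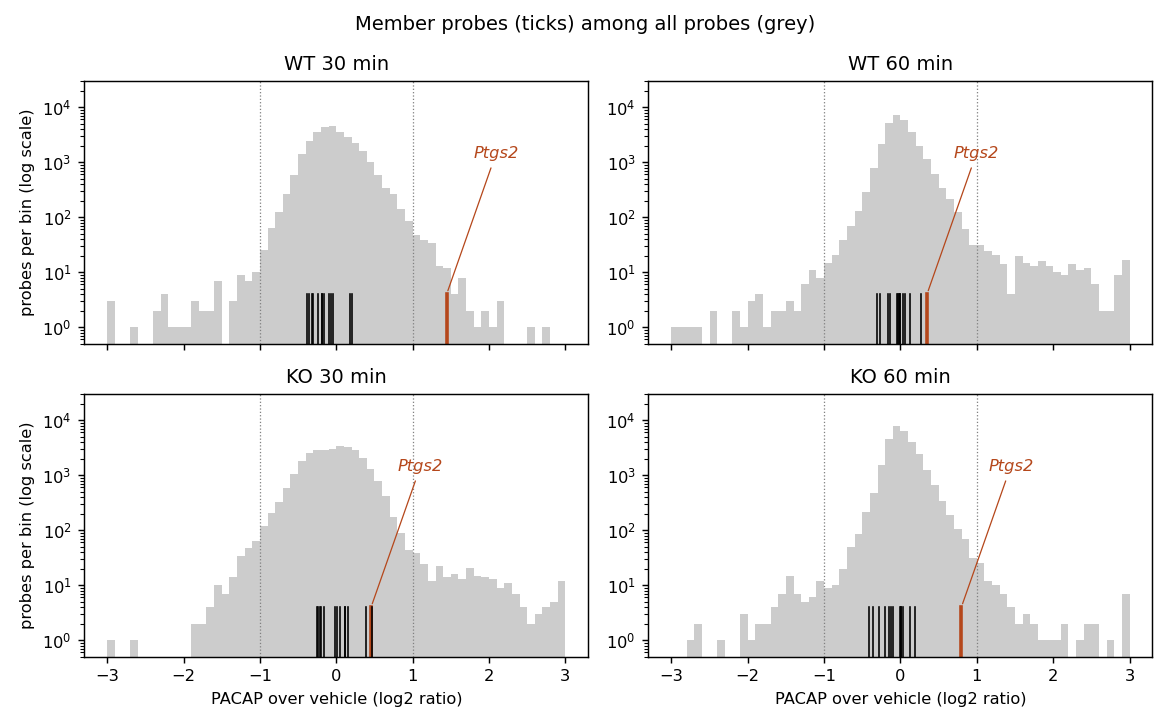
Number of probes per bin of 0.1 (grey bars, y axis on a log scale) by log2 ratio of PACAP over vehicle (x axis), with 1 panel for each comparison; values beyond 3 on either side are drawn in the end bins. Ticks are the 14 member probes, Ptgs2 in orange, and dotted lines mark 2-fold and 0.5-fold. The tick of Ptgs2 is beyond 2-fold in WT at 30 min alone, and every other tick is inside the dotted lines in all 4 panels.

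In the limma fit of the 4 comparison values against 0, which asks for an effect of PACAP shared by both genotypes and times, the log2 ratio of Ptgs2 was 0.76 (SE 0.19, 95% interval 0.31 to 1.22, n = 4 comparisons). It was above 0 in 4 of 4 comparisons but did not pass over all probes (unadjusted p = 0.0059, adjusted p = 1). This fit called 0 of 30351 probes, 0%, with 678 at an unadjusted p below 0.05. The PACAP effect on Ptgs2 was 0.27 lower in KO than in WT mice over both times, written as a log2 difference of -0.27 (SE 0.38, 95% interval -1.20 to 0.66, limma adjusted p = 0.86). The sign of that difference was not the same at both times, since WT exceeded KO at 30 min (2.72-fold against 1.37-fold) and KO exceeded WT at 60 min (1.74-fold against 1.27-fold). Without WT at 30 min it was 0.28. The log2 difference between 60 and 30 min was -0.38 (SE 0.38, 95% interval -1.32 to 0.56, adjusted p = 1) and 0.12 without WT at 30 min. These fits of KO against WT and of 60 against 30 min called 0 of 30351 probes each, 0%, with 972 and 483 probes at an unadjusted p below 0.05.

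Several lists of cell type markers moved with Ptgs2 in WT at 30 min. There 10 of 10 skeletal muscle markers had a log2 ratio above 0 (median 0.77; summed intensity 97017 with vehicle and 179603 with PACAP), as did 6 of 6 fibroblast markers (median 0.45; 103443 and 142090) and 6 of 7 measured neutrophil markers (median 0.74; 12310 and 19026). In the same comparison 7 of 7 measured mast cell markers (median 0.37; 10308 and 12949), 5 of 5 Schwann cell markers (median 0.19; 3319 and 3855), 7 of 8 hair markers (median 0.38; 7820 and 11738) and 6 of 8 keratinocyte markers (median 0.14; 282798 and 301685) were above 0. In KO at 30 min 1 of 10 muscle markers and 0 of 6 fibroblast markers were above 0 (medians -0.74 and -0.57; summed intensity 141262 and 129786 with vehicle, 84691 and 88017 with PACAP), while 6 of 7 neutrophil markers were (median 1.16; 12687 and 32858) and 1 of 8 keratinocyte markers was (median -0.66; 335768 and 232733), and Ptgs2 was at 1.37-fold. There 8 of 8 hair markers were above 0, all of them past the counting rule (median 1.32; 4584 and 10981), and 0 of 5 Schwann cell markers were above 0 (median -0.32; 3197 and 2646). In KO at 60 min 6 of 7 neutrophil markers were above 0 (median 0.26; 14593 and 43148), as were 7 of 8 keratinocyte markers (median 0.29; 237215 and 336939) and 5 of 6 fibroblast markers (median 0.23), against 0 of 8 hair markers (median -0.49; 38970 and 28483), and the muscle median was 0.02. In WT at 60 min 8 of 8 hair markers passed the counting rule (median 2.40; 5813 and 26968), 7 of 8 keratinocyte markers were above 0 (median 0.23; 225601 and 282630) and 2 of 7 neutrophil markers were (median -0.17; 18534 and 26203). In every sample 8 of 8 keratinocyte and 7 of 8 eccrine gland markers were well above background, as were 8 of 8 hair and 10 of 10 skeletal muscle markers. These lists therefore do not check the tissue label. Median log2 ratios lay between -0.66 and 0.29 over the 4 comparisons for keratinocyte, between -0.35 and 0.09 for eccrine gland, between -0.04 and 0.13 for endothelium, between -0.06 and 0.37 for mast cell, between -0.01 and 0.16 for macrophage, between -0.32 and 0.19 for Schwann cell and between -0.49 and 2.40 for hair markers. None of these lists had a marker below background in all samples, and their part in the values of Ptgs2 was not tested. In bulk skin, fewer cells of a type and less RNA per cell cannot be told apart.

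**Figure D3:**
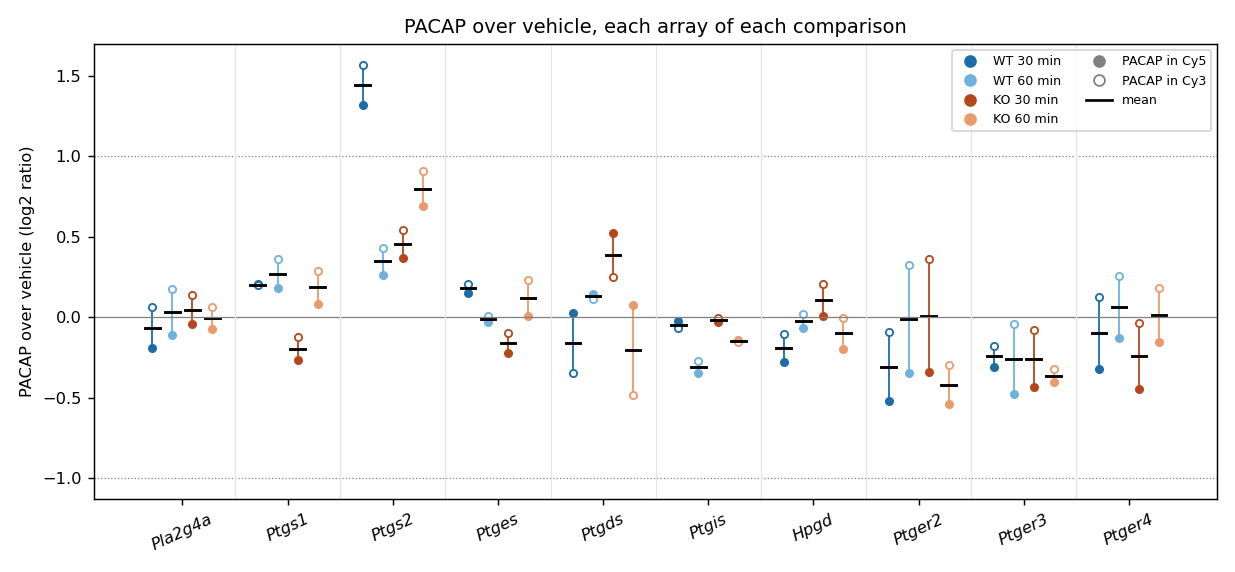
Log2 ratio of PACAP over vehicle (y axis) for the brighter probe of each of the 10 genes (x axis) in the 4 comparisons. Filled points are arrays with PACAP in Cy5, open points arrays with PACAP in Cy3, the line joins the 2 arrays, and the black bar is their mean; dotted lines mark 2-fold and 0.5-fold. Ptgs2 lies above 0 on all 8 arrays and Ptger3 below 0 on all 8, and for several other genes the 2 arrays fall on either side of 0.

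The other 9 members stayed between 0.809-fold and 1.15-fold for WT 30 min, 0.837-fold and 1.31-fold for KO 30 min, 0.808-fold and 1.21-fold for WT 60 min, and 0.749-fold and 1.14-fold for KO 60 min. Over all 10 members the median log2 ratio was -0.08, 0.00, 0.01 and -0.05 in that order, beside -0.05, -0.01, -0.01 and 0.00 over all probes of the fits. Small ratios moved with the dye: over all probes, which are not independent replicates, the 2 arrays of a comparison, both turned to PACAP over vehicle, correlated at r between -0.44 and -0.08. Of the 14 member probes, 11 kept 1 direction on both arrays for WT 30 min, 11 for KO 30 min, 5 for WT 60 min and 9 for KO 60 min, beside 56.2%, 63.0%, 45.0% and 44.9% of the 30351 probes.

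Upstream of the cyclooxygenases, Pla2g4a, the cytosolic phospholipase A2 that frees arachidonic acid, was the flattest member. It lay between 0.957-fold and 1.03-fold in the 4 comparisons, and on no comparison did its 2 arrays share a direction. Its level in KO mice was 10.23 with vehicle and 10.28 with PACAP at 30 min and 9.93 with both at 60 min. In WT mice the level was 9.82 with vehicle and 9.80 with PACAP at 30 min, and 9.81 and 9.86 at 60 min. The KO samples were thus above the WT samples in 4 of 4 matches, by 0.27 on average on the log2 scale, which did not pass in the level fit (adjusted p = 0.12).

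Ptgs1, the constitutive cyclooxygenase COX-1, did not share the pattern of Ptgs2. Its mean was 1.15-fold for WT 30 min, 1.21-fold for WT 60 min and 1.14-fold for KO 60 min, with both arrays above 1 each time. In KO at 30 min it was at 0.874-fold with both arrays below 1. No array gave a Feature Extraction p below 0.01 for it. Across samples the level of Ptgs1 was 11.59 and 11.81 in WT at 30 min (vehicle, then PACAP) and 11.06 and 11.38 in WT at 60 min. In KO mice the level was 11.94 and 11.75 at 30 min and 11.45 and 11.63 at 60 min. Every 60 min sample was below its 30 min match, by 0.39 on average (95% interval -0.66 to -0.12 for 60 minus 30 min), with an adjusted p of 0.070 in the level fit and 0.21 with each pair of co-hybridised samples averaged to 1 value.

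To set the promoters of the 2 cyclooxygenase genes side by side, the 250 bases upstream of the start given by RefSeq are printed from build GRCm38.p6, for Ptgs2 at chr1:150099781-150100030 and for Ptgs1 at chr2:36230176-36230425, both on the plus strand. RefSeq's promoter table held 9 of the 10 members, all but Ptgis. The letters searched on both strands were TGACG (the core of the cAMP response element), TTNNGNAA (C/EBP), CACGTG (E-box) and TATAAA (the core promoter box that binds TBP), and capitals mark a match.
Ptgs2 upstream: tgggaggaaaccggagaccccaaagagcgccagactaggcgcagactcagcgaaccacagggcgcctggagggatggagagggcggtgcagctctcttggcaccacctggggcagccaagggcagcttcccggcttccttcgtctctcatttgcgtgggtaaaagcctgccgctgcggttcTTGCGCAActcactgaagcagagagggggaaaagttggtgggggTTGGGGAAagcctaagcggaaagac
Ptgs1 upstream: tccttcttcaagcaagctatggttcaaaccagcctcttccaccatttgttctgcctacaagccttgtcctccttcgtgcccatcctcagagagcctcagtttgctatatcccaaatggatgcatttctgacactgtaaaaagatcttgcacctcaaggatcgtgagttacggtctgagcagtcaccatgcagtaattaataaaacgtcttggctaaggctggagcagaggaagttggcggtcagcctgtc
Ptgs2 stretch after the start, chr1:150100032-150100061: gagtcaccactaCGTCACGTGgagtccgct
Counted from the RefSeq start, Ptgs2 held TTNNGNAA at bases -69 to -62 and -25 to -18. It held TGACG (as CGTCA) at bases 14 to 18, overlapping CACGTG at bases 17 to 22. Where transcription begins in this skin was not measured, so whether these letters lie before or after the start in use is not known here. In windows of 300 bases, 250 before to 50 after the start, TGACG stood in 20.8% of 32851 promoters, TTNNGNAA in 40.7%, CACGTG in 7.15% and TATAAA in 13.6%. Among the 10 entries of the 9 members, Ptgs2 alone held TGACG and Ptgs2 alone held CACGTG, Ptgs1 held none of the 4, and 6 genes held TTNNGNAA. A match of letters is a description of the window, and no binding was measured.

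Of the terminal synthases, Ptges, which encodes the inducible prostaglandin E synthase coupled to COX-2, had probes that disagreed. In WT at 30 min the brighter probe was at 1.13-fold and the dimmer at 0.879-fold, each with both arrays on its own side of 1. In KO at 30 min the order was turned, with 0.894-fold for the brighter and 1.39-fold for the dimmer probe. The dimmer probe's array with PACAP in Cy5 in KO at 30 min, at 1.52-fold, was the 1 array of a member other than Ptgs2 with a Feature Extraction p below 0.01, at 0.0044 from the software's error model, and its partner gave 1.26-fold at 0.11. At 60 min both probes were between 0.981-fold and 1.09-fold in both genotypes. The level of the brighter probe ran from 13.01 to 13.19 over the 8 samples and that of the dimmer from 7.78 to 8.27, and at 30 min the 2 probes gave opposite directions in both genotypes.

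Ptgds encodes the lipocalin-type prostaglandin D synthase. It reached 1.31-fold in KO at 30 min, from 1.44-fold on the array with PACAP in Cy5 and 1.19-fold on the other, and 1.09-fold in WT at 60 min. In WT at 30 min and KO at 60 min its arrays fell on either side of 1, at means of 0.895-fold and 0.868-fold. Its 8 levels ran from 6.86 in the KO vehicle sample at 30 min to 7.21 in the WT PACAP sample at 60 min.

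Ptgis, the prostacyclin synthase of vessel walls and fibroblasts, was below 1 on all 8 arrays with its brighter probe. The means were small, at 30 min 0.968-fold (WT) and 0.989-fold (KO), at 60 min 0.808-fold (WT) and 0.904-fold (KO), and no array had a p below 0.01. The dimmer probe was at 0.769-fold in WT at 30 min and at 1.08-fold in KO at 30 min. In the shared fit neither probe passed (log2 -0.13 for both, adjusted p = 1).

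Hpgd encodes the dehydrogenase that inactivates prostaglandins. In WT at 30 min its brighter probe was at 0.876-fold and its other probe at 0.803-fold. In KO at 30 min they were at 1.08-fold and 1.11-fold. Both probes thus had both arrays below 1 in WT and both above 1 in KO at that time, and at 60 min they lay between 0.933-fold and 1.01-fold. The level of the brighter probe was lowest in the WT PACAP sample at 30 min (11.40) and highest in the KO PACAP sample at 30 min (11.93), which were also the extremes of the other probe (10.64 and 11.57).

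Among the receptors of prostaglandin E2, Ptger3, which encodes EP3, was below 1 in all 4 comparisons on both of its probes. Its brighter probe was at 0.845-fold (WT) and 0.837-fold (KO) after 30 min and at 0.834-fold (WT) and 0.778-fold (KO) after 60 min, below 1 on 8 of 8 arrays. The dimmer probe, from another position in the gene, was at 0.781-fold, 0.865-fold, 0.891-fold and 0.827-fold in that order, below 1 on 7 of 8 arrays. The array with PACAP in Cy5 was the lower in all 4 comparisons for both probes, with the lowest values at 0.718-fold and 0.704-fold. In the shared limma fit the log2 ratio was -0.28 (SE 0.08, 95% interval -0.48 to -0.08, unadjusted p = 0.013) for the brighter and -0.25 (SE 0.08, unadjusted p = 0.023) for the dimmer probe, both with an adjusted p of 1. For the brighter probe it was -0.41 (adjusted p = 0.047) on the arrays with PACAP in Cy5 alone and -0.16 (adjusted p = 0.44) on those with PACAP in Cy3 alone. In either set alone PACAP and dye cannot be told apart, and 2318 and 2118 of all 30351 probes passed the fit. No array had a p below 0.01 for either probe.

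Ptger2, which encodes EP2, and Ptger4, which encodes EP4, had the largest mean gaps between dyes among the members over the 4 comparisons. Ptger2 was at 0.809-fold for WT 30 min and at 0.749-fold for KO 60 min, with both arrays below 1. In the other comparisons its arrays lay on either side of 1, at 1.29-fold and 0.788-fold in KO at 30 min and at 1.25-fold and 0.788-fold in WT at 60 min. Ptger4 was at 0.847-fold in KO at 30 min, with both arrays below 1, and between 0.935-fold and 1.04-fold elsewhere with arrays on either side of 1. Neither receptor passed any of the 3 ratio fits.

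**Figure D4:**
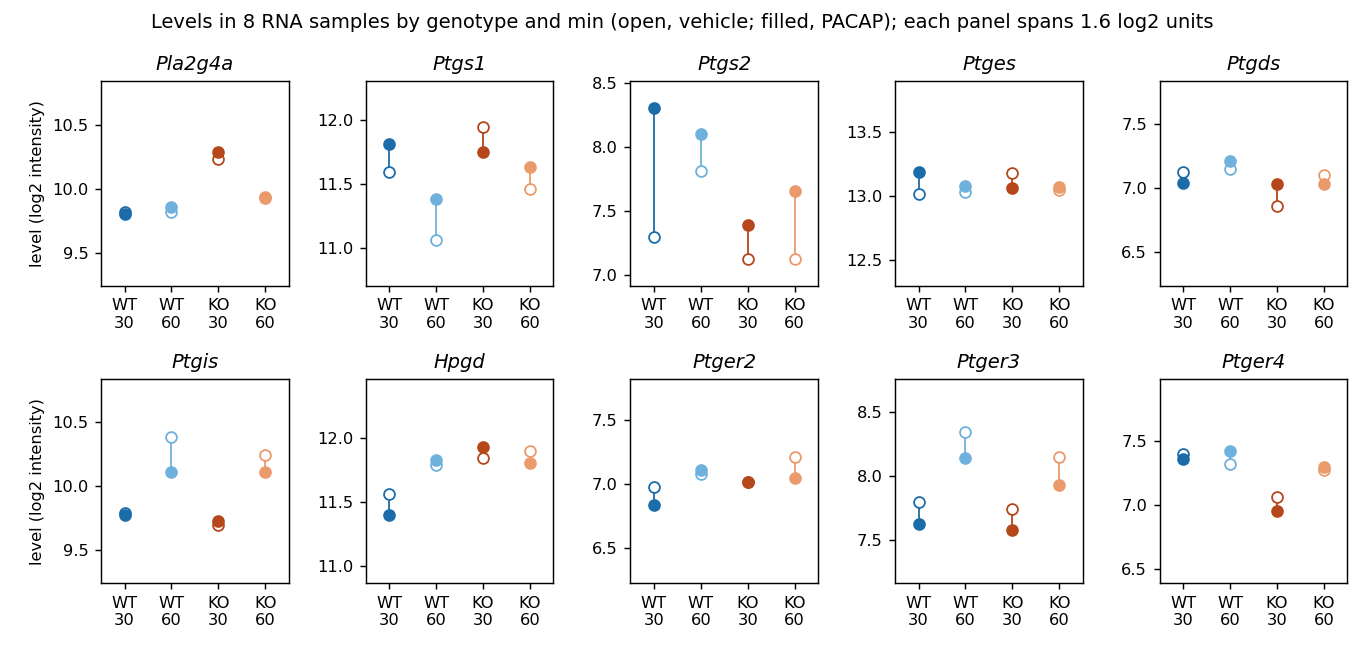
Level (log2 normalised intensity, y axis) of the brighter probe of each gene in the 8 RNA samples, by genotype and time in min (x axis); open points are vehicle and filled points PACAP samples of the same hybridisation. Each panel spans the same range, and levels of different genes are not to be set against each other. Ptgs2 has the longest line in WT at 30 min, and the 60 min samples of Ptger3 and Ptgis lie above all their 30 min samples.

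Levels were also compared between genotypes and between times over the 8 RNA samples, with the pair of co-hybridised samples as a random block in limma. In the fit of 60 against 30 min 2837 of 26354 probes passed, 10.8%, and 3 of 14 member probes did, those of Ptger3 and the brighter probe of Ptgis. With each pair averaged to 1 value, the form that keeps co-hybridised samples from counting as separate, 0 probes passed, 0%, with 4940 at an unadjusted p below 0.05. The level of Ptger3 was 7.80 with vehicle and 7.63 with PACAP in WT at 30 min, and 8.34 and 8.14 at 60 min. In KO mice its level was 7.74 with vehicle and 7.58 with PACAP at 30 min, and 8.15 and 7.93 at 60 min. All 4 of the 60 min samples were above all 4 of the 30 min samples, by a log2 mean of 0.46 (SE 0.06, adjusted p = 0.015, and 0.21 with each pair averaged). For the dimmer Ptger3 probe the difference was 0.32 (adjusted p = 0.026, and 0.22 with each pair averaged). Leaving out the WT 30 min, the WT 60 min or the KO 60 min pair left 0 of 14 member probes past the fit. Leaving out the KO 30 min pair left 6 of 14, beside 10656 of all 26354 probes.

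The level of Ptgis was 9.79 with vehicle and 9.77 with PACAP in WT at 30 min and 10.38 and 10.11 at 60 min. In KO mice it was 9.70 and 9.73 at 30 min and 10.24 and 10.11 at 60 min. Here too the 60 min samples were all above the 30 min samples, by 0.47 (SE 0.07, adjusted p = 0.022, and 0.21 with each pair averaged), while the dimmer probe differed by 0.22 (adjusted p = 0.092). Marker lists also differed between the times. Averaged over the samples of a time, 8 of 8 hair markers (median log2 difference 1.22) and 9 of 10 skeletal muscle markers (median 0.39) were higher at 60 min, while 1 of 6 fibroblast markers (median -0.20), 2 of 6 endothelium markers (median -0.16) and 1 of 5 Schwann cell markers (median -0.24) were. These means were not shared by every sample: the summed hair intensity was 7820 and 11738 with vehicle and PACAP in WT and 4584 and 10981 in KO mice at 30 min, against 5813 and 26968 in WT and 38970 and 28483 in KO mice at 60 min. The summed muscle intensity at 60 min was below that at 30 min in the WT PACAP and the KO vehicle sample (146216 against 179603 and 133214 against 141262). The part of these differences in the levels of Ptger3 and Ptgis was not tested.

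Between genotypes 903 of 26354 probes passed, 3.43%, and 0 of 14 member probes did. With each pair averaged 0 probes passed, 0%, with 3317 at an unadjusted p below 0.05. The level of Ptgs2 was lower in KO than in WT mice in 4 of 4 matches, by between 0.18 and 0.92 and by 0.55 on average (95% interval -0.92 to -0.19 for KO minus WT), with an adjusted p of 0.089 in the block fit and 0.40 with each pair averaged. Ptger4 was also lower in KO in 4 of 4 matches, by 0.23 on average (adjusted p = 0.15), and the dimmer Ptger3 probe was lower in 4 of 4 by 0.19 (adjusted p = 0.090), the brighter by 0.12 (adjusted p = 0.21). The dimmer Ptgis probe was higher in KO in 4 of 4 by 0.27 (adjusted p = 0.082), while the brighter differed by -0.07 and was lower in 3 of 4. Beside these values, 0 of 10 skeletal muscle markers (median log2 difference -0.15), 1 of 5 Schwann cell markers (median -0.30) and 1 of 8 eccrine gland markers (median -0.11) had a higher mean level in KO, against 8 of 8 hair (0.45), 5 of 6 fibroblast (0.23), 5 of 6 macrophage (0.25) and 6 of 8 mast cell markers (0.18), and their part was not tested. None of these differences can be separated from the slide. Adcyap1r1, the deleted gene, was between 7.91 and 8.56 in the KO samples and between 8.27 and 8.76 in the WT samples on its brightest probe. Whether that probe lies in the deleted stretch is not known here, so it does not check the genotype labels.

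Of 31 other gene symbols of the prostanoid pathway (further phospholipases, synthases, receptors, reductases and transporters), 29 were on the array under that symbol. Of these, 27 passed the filter on dim probes. None of them passed the counting rule in any comparison, and their median log2 ratio was -0.06 for WT 30 min, 0.03 for KO 30 min, 0.03 for WT 60 min and 0.01 for KO 60 min. The largest ratio was that of Pla2g10, a secreted phospholipase named here after its values were seen, at 3.36-fold in WT at 60 min with a p above 0.01 on both arrays, where it was well above background on 1 of 2 arrays for either sample, so that this fold rests on partly dim signals. Of 14 lipoxygenase and leukotriene genes, the other branch that uses arachidonic acid, 12 passed the filter, none passed the counting rule, and their median lay between -0.07 and -0.01.

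The immediate early and cAMP response list, early-response genes as Ptgs2 also is, had 18 of 19 members past the filter. In WT at 30 min 13 of them were above 0 with a median log2 ratio of 0.48, in KO at 30 min 11 with 0.06, in WT at 60 min 4 with -0.15 and in KO at 60 min 16 with 0.15. Il6, which encodes the cytokine interleukin 6, was the 1 gene of the list past the counting rule. At 30 min Il6 was at 4.47-fold in WT mice and 3.80-fold in KO mice, and at 60 min at 1.12-fold and 1.77-fold.

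The search for levels like those of Ptgs2 covered 20278 probes well above background in every RNA sample. The 5 names that correlated best with Ptgs2 over the 8 samples had a Pearson correlation between 0.91 and 0.97. Of these, 2 carried no gene symbol, and the others were Has2, a hyaluronan synthase (r = 0.92), Pip5k1a, a phosphoinositide kinase (r = 0.91), and Mt2, a metallothionein (r = 0.91). The levels of the name at 0.97 spanned 0.12 on the log2 scale and those of the others 0.46 to 0.75, against 1.18 for Ptgs2. A high correlation here is thus not a change of like size. The 8 samples share slides and hybridisations in pairs, and the correlation is a description of their order.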

How the data were processed

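RNA of 8 skin samples was hybridised as 4 PACAP and vehicle pairs to 8 Agilent 2-colour arrays, and groups came from the labels. The authors extracted the images with Feature Extraction (12.0.3.1 in the file headers, 11.0.1.1 in the submitters' processing notes). Deposited values include log10 ratios, red over green, which were background-corrected and LOWESS-normalised within each array, and the deposited p-value of each spot comes from the software's error models. The deposited intensity values are mean, local background and processed signals of each channel. The deposited series matrix holds the ratios of the processed signals, which differ from these wherever the software had set a ratio to 0.

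Control spots and outlier spots were left out (198 to 342 outlier spots of any probe per array, 0 saturated). Ratios were turned to PACAP over vehicle as log2, then averaged, first over the spots of each probe and next over the 2 arrays. Between 13.4% and 25.0% of ratios had been set to 0 by the software. Levels are log2 intensities after normexp (offset 50), loess and Aquantile. Fits used limma 3.58.1 in R 4.3.3 with Benjamini-Hochberg adjustment over all probes (adjusted p below 0.05), figures Python 3.11.15. Ratio fits used 30351 probes that on each array rose well above background in 1 channel or both, level fits 26354 well above background on both arrays of at least 1 sample. Tested on simulated data, the level fit with a random block gave more false calls than its threshold allows, so the fit on pair means, added after that test, is given beside it. Precision is limited by the number of arrays and samples. The p-values of Feature Extraction speak of single hybridisations. Those of the ratio fits measure the spread between comparisons, and those of the level fits the spread between samples or pair means.

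The genes named are the 10 members with every probe, genes of the 3 pathway lists past the counting rule, the 5 names most like Ptgs2 and Adcyap1r1, with Pla2g10 added after its values were seen. Marker genes are given by list. The members and lists were chosen with earlier results of these data known. Marker lists covered keratinocytes, eccrine gland, fibroblasts, endothelium, mast cells, macrophages, neutrophils, skeletal muscle, hair and Schwann cells. Gene names and probe positions are those of the files (mm9), and upstream sequences are RefSeq's.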

Additional observations from a re-analysis of the deposited data

Results flagged for a closer look

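For 3 genes, both arrays of a comparison lay on one side of 1 and both arrays of the comparison set beside it on the other. At 30 min the PACAP effect differed between KO and WT, as a log2 difference of KO minus WT, by -0.40 for Ptgs1, -0.34 for the brighter Ptges probe, 0.66 for the dimmer Ptges probe, and 0.30 and 0.47 for the brighter and dimmer probes of Hpgd. In KO mice the 60 min effect minus the 30 min effect was 0.38 for Ptgs1, 0.28 for the brighter Ptges probe and -0.21 for the brighter Hpgd probe. In the same 30 min comparisons the median log2 ratio of skeletal muscle markers was 0.77 in WT and -0.74 in KO, that of fibroblast markers 0.45 and -0.57, that of keratinocyte markers 0.14 and -0.66, that of hair markers 0.38 and 1.32 and that of Schwann cell markers 0.19 and -0.32. In KO mice at 60 min these medians were 0.02, 0.23, 0.29, -0.49 and 0.03 in the same order, and the part of these lists was not tested. None of these differences at a single time or in a single genotype was tested, since each rests on 1 pair of samples a side. Such an opposition was met by 5 of 14 member probes between genotypes at 30 min and by 37.4% of all 30351 probes of the fits, and by 3 of 14 and 27.6% between times in KO mice. It was met by 0 of 14 member probes between genotypes at 60 min and between times in WT mice, beside 11.7% and 11.2% of all probes. The 2 probes of Ptges opposed each other, and those of Hpgd had the same sign.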

How the results depend on the processing

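Ptgs2 stayed the 1 member past the counting rule, in WT at 30 min alone, under each of the 10 alternatives to the counting rule and its values. With normexp and loess its log2 ratio was 1.01 for WT 30 min, 0.27 for KO 30 min and 0.53 for KO 60 min. Single arrays gave 1.32 to 1.57, 0.37 to 0.54, 0.26 to 0.43 in WT at 60 min and 0.69 to 0.91. The other members' log2 ratios ran from -0.54 to 0.52 over 268 values, 16 of which moved by more than the SD between arrays. Probes past the rule with normexp and loess numbered 57, 164, 170 and 72 in WT 30, KO 30, WT 60 and KO 60 min, without the Feature Extraction p 222 and 434 at 30 min in WT and KO, and on single arrays 612 to 870, 881 to 1197, 679 to 837 and 446 to 701.

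Leaving out an array or a comparison, the shared fit called 0 to 2318 probes and 0 to 3 member probes (Ptger2 and both of Ptger3 without the arrays with PACAP in Cy3), KO against WT 0 to 170 probes, 17 with time as a covariate, and 60 against 30 min 0 to 18, 2 with genotype as a covariate. For Ptgs2 the shared PACAP effect kept its sign, but without WT at 30 min the differences between PACAP effects reversed, to 0.28 for KO minus WT and 0.12 for 60 minus 30 min; the first reached -0.82 without WT at 60 min and the second -0.87 without KO at 30 min. The replicate number marks dye orientation and pairs no animals; the shared fit on single arrays with it as a replicate block called 0 probes, and same-numbered arrays correlated at r between 0.24 and 0.60.

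The level fit of KO against WT called 2597 of 26354 probes and 2 of 14 member probes with Feature Extraction's processed signals. Without the random block it called 2607 of 26354 and 1 of 14 (Ptgs2), and without a filter 2306 of 39427 and 1 of 14. On probes above background in every sample it called 349 of 20278 and 0 of 14. With vehicle samples alone or pair means it called 0, and without a pair 0 to 2746 of 26354 and 0 to 3 of 14. That of 60 against 30 min called 4886 of 26354 probes and 4 of 14 member probes without the block. On probes above background in every sample it called 987 of 20278 and 3 of 14. It called 0 probes and 0 member probes with vehicle samples alone or pair means, and 0 to 10656 of 26354 and 0 to 6 of 14 without a pair. The cause of these differences was not tested.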
